A study of Homo sapiens with 6 samples.

Results

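The genes described here encode the proteins of the cytosolic ribosome. Members were taken by symbol: protein-coding genes named RPL or RPS with a number and an optional A, X, Y or L ending, together with RPSA, RPLP0, RPLP1 and RPLP2, leaving out the RPS6K kinases. The rule found 85 of the 23459 genes in the table, 52 named for the large (60S) and 33 for the small (40S) subunit.

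Libraries came from Raji, a long-established B cell line from a Burkitt's lymphoma, which carries Epstein-Barr virus and stems from the germinal centre. Both groups carried a lentiviral pLKO.1 vector, with either the non-target hairpin SHC002 (control, 3 libraries) or OBF1sh1, a hairpin against OBF1 (3 libraries), and both went through 5 days of infection and 7 days in 3 μg/ml puromycin. OBF1, the product of POU2AF1, is a B cell coactivator that works with the octamer-binding factors Oct1 and Oct2. The study used 1 OBF1 hairpin in these libraries, and nothing in the labels tells whether replicates were cultured separately. The p-values therefore rest on a spread between replicates that may be only technical.

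Total gene counts ran from 29569281 to 32612429 per library, and the ranges of the groups overlapped. POU2AF1 was at 512 to 516 counts per 1000000 counts (CPM, on trimmed-mean scaled library sizes) in control and 241 to 244 CPM in OBF1 shRNA libraries, which checks the labels. B cell markers were present in every library, with CD79A at 528 to 621 CPM. The 8 markers moved in both directions, 5 higher and 3 lower: MS4A1 (CD20) rose from 702 ± 14.5 to 2078 ± 16.0 CPM and CD22 from 216 ± 2.48 to 351 ± 3.40 CPM, while the germinal centre genes MME and BCL6 fell from 319.5 ± 4.51 to 152 ± 2.02 CPM and from 261 ± 7.76 to 139.7 ± 0.629 CPM (SD, n = 3, all called in the edgeR test). Their part in the members' changes was not tested. Summed T and NK cell markers were at 0.224 to 0.381 CPM in control and 1.06 to 1.21 CPM in OBF1 shRNA libraries. Of these 9, 4 were at 0 in all libraries, among them CD3D and CD2. Only NKG7 had enough counts to be tested. It was called higher, at 0.144 ± 0.0970 against 0.789 ± 0.0551 CPM (SD, n = 3). Summed myeloid markers were at 1.90 to 1.98 and 2.04 to 2.30 CPM, with 2 of 8 at 0. Of 3 tested, LYZ was called lower, ITGAM higher and CSF1R did not pass. Markers of the 293T packaging cells were at no more than 0.0352 CPM.

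A ribosome joins a small subunit, which reads the messenger RNA, to a large subunit, which makes the peptide bond. Each ribosomal protein is needed in about equal amounts, and lymphoma cells that divide fast make much of them. Messenger RNAs for ribosomal proteins characteristically begin with a C followed by an unbroken run of pyrimidines, the 5′ terminal oligopyrimidine (TOP) motif, through which mTOR complex 1 and the RNA-binding protein LARP1 control their translation and stability. A few members have paralogs: genes for near copies of a ribosomal protein, several of them restricted to testis or muscle or working outside the ribosome. An A after the number does not mark a paralog, since RPL7A and RPL7, for instance, are distinct proteins.

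Start sites of some members the results turn on are shown because most members share the TOP start and some, paralogs and others, do not. Each sequence runs 5′ to 3′ from 15 bases before to 15 bases from the start annotated in RefSeq (GRCh38.p14). Capitals mark a run of at least 5 pyrimidines, counted from a C within 3 bases of that start. Pyrimidines directly before that C are left in small letters and not counted.
RPL13 (chr16:89560667-89560696, plus strand): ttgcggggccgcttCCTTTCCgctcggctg
RPLP1 (chr15:69452803-69452832, plus strand): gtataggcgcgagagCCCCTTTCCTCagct
RPS12 (chr6:132814554-132814583, plus strand): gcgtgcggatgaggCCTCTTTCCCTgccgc
RPL22 (chr1:6199581-6199610, minus strand): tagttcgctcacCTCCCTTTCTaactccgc
RPL22L1 (chr3:170870181-170870210, minus strand): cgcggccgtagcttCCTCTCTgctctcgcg
RPL39 (chrX:119791616-119791645, minus strand): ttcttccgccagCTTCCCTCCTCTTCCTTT
RPS27 (chr1:153990747-153990776, plus strand): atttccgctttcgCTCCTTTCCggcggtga
RPS27L (chr15:63157463-63157492, minus strand): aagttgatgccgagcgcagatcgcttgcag
RPL7L1 (chr6:42879601-42879630, plus strand): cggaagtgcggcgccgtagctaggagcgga
RPL13 has further annotated starts; the one shown is the only one of its starts with a run. RPL22L1 carried the run like its partner RPL22, whereas RPS27L and RPL7L1 did not. The reverse held for the paralog RPS4Y1, not shown, which carried a run of 7 where its partner RPS4X had none. RPS4Y1 and RPS4X both rose 1.31-fold.

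Ribosomal protein genes were higher as a body in OBF1 shRNA cells, nearly all by a similar and modest amount. Of 85 members, 83 had enough counts to be tested, and 78 of these were higher and 3 lower (edgeR quasi-likelihood test with p-values adjusted by Benjamini-Hochberg over all 12010 genes tested, threshold 0.05). Over all tested genes, 37.5% were called higher, 37.9% lower and 75.4% in either direction. The median log2 fold change of the 83 was 0.38, or 1.31-fold, beside -0.01 over all tested genes. The members' quartiles were 0.31 and 0.44 on that scale, against -0.29 and 0.30 for all tested genes. A change between 1.2-fold and 1.5-fold upward described 67 of the 83.

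The groups did not overlap in 82 members, 79 of them higher and 3 lower in OBF1 shRNA libraries. Over all tested genes 38.0% were separated upward and 38.7% downward. Calls at this small size were possible because replicates lay close: the median SD of log2 CPM over 3 libraries was 0.04 in control and 0.03 in OBF1 shRNA cells. Most members are abundant. Among 1001 genes outside the list with a mean above 200 CPM, 473 were called higher and 401 lower, and the median log2 fold change was 0.04.

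**Figure D1:**
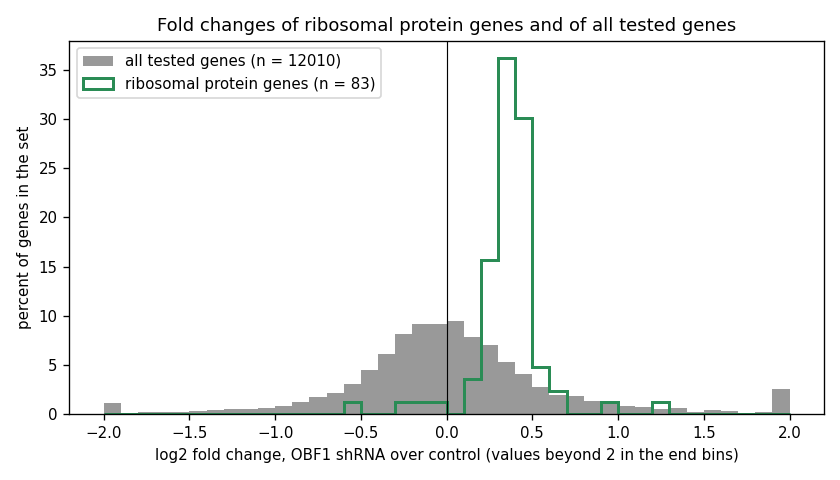
Percent of genes in each bin of log2 fold change (OBF1 shRNA over control, bins of 0.1) for the 83 tested ribosomal protein genes (green line) and all 12010 tested genes (grey). The ribosomal protein genes form a narrow peak around their median of 0.38, to the right of the grey peak near 0.

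The rise was also present in shares of each library's total gene counts, which use no trimmed-mean factor. Members held 5.91%, 6.11% and 5.88% of all gene counts in the control libraries and 7.31%, 7.11% and 7.30% in the OBF1 shRNA libraries. Every OBF1 shRNA library was above every control library, at 7.24% ± 0.112 against 5.97% ± 0.124 (SD, n = 3; exact two-sided permutation p = 0.1, the smallest that 3 libraries against 3 can give). The trimmed-mean scaling factors themselves differed between the groups, at 1.03 to 1.04 in control and 0.961 to 0.966 in OBF1 shRNA libraries. With library sizes alone, the log2 fold changes of all genes shifted by a median of -0.11, the members' median was 0.28, and 76 members were still called higher and 4 lower.

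Large and small subunit genes had the same median change. Of 50 tested large subunit members 48 were higher and 2 lower, and of 33 small subunit members 30 were higher, 1 was lower and 2 did not pass. The median log2 fold change was 0.38 in both sets. Large subunit genes took 3.49%, 3.60% and 3.48% of counts in control and 4.30%, 4.22% and 4.31% in OBF1 shRNA libraries, and small subunit genes 2.42%, 2.51% and 2.40% against 3.01%, 2.89% and 2.98%. Summed counts per kilobase of the large over the small subunit were 1.31, 1.31 and 1.32 in control and 1.30, 1.33 and 1.31 in OBF1 shRNA libraries. These ratios overlapped between the groups (exact two-sided permutation p = 0.8, difference of means -0.004).

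**Figure D2:**
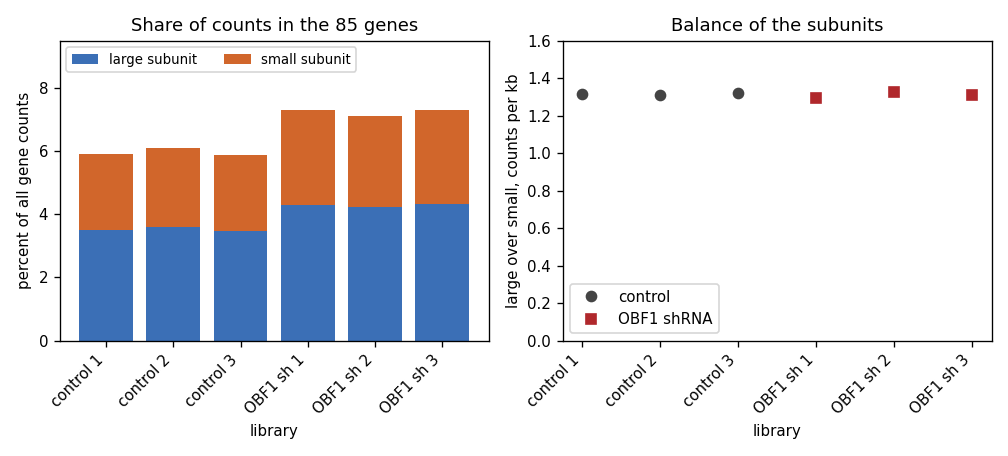
Left, percent of all gene counts in large (blue) and small (orange) subunit genes, 1 bar per library. Right, summed counts per kilobase of large over small subunit genes, 1 point per library; the share is higher in all 3 OBF1 shRNA libraries while the ratio stays between 1.30 and 1.33.

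Without the 9 listed paralogs the pattern was more uniform. All 46 large subunit genes and 29 of 30 small subunit genes were higher, with RPS26 the exception. The log2 fold changes of these 76 genes had an SD of 0.17 about a median of 0.39. RPL5 (adjusted p = 0.0685) and RPL17 (adjusted p = 0.0550) lost their calls in the edgeR test with library sizes alone.

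**Figure D3:**
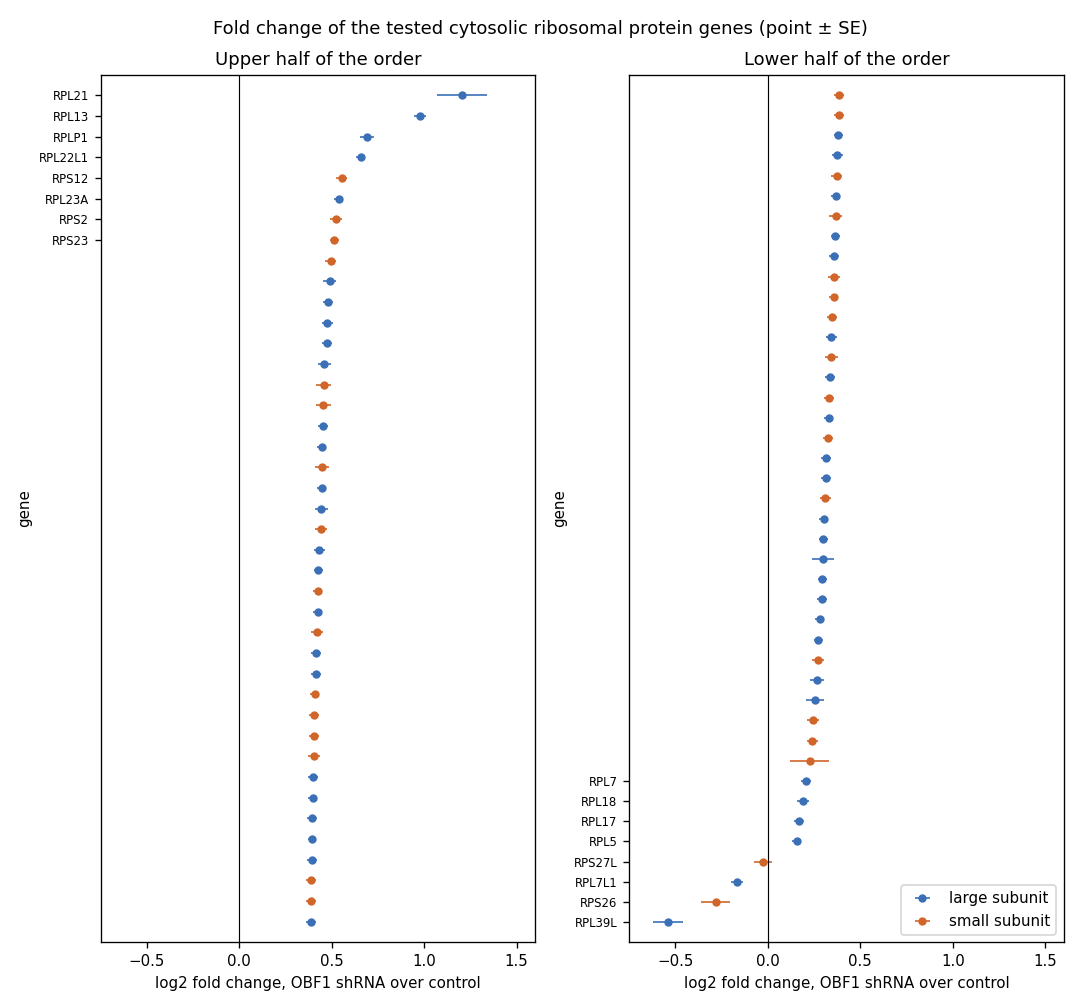
Log2 fold change (point) and its SE (bar) of each of the 83 tested members, in descending order from the left panel to the right, large subunit in blue and small in orange; the 8 at each end of the order are labelled. The quartiles are 0.31 and 0.44; RPL21, RPL13, RPLP1 and RPL22L1 lie furthest right, and RPL39L, RPS26, RPL7L1 and RPS27L lie left of 0.

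RPL13, a large subunit protein of the 60S surface, had the largest rise among abundant members. It was at 519, 559 and 520 CPM in control and 1047, 1006 and 1089 CPM in OBF1 shRNA libraries. The groups were far apart, with a 1.97-fold difference of the fitted means (log2 fold change 0.98, SE 0.03, edgeR adjusted p = 6.77e-15). RPL21 had a larger fold, 2.31, but on few reads: 51, 58 and 50 counts in control and 99, 115 and 130 in OBF1 shRNA libraries (log2 fold change 1.21, SE 0.13, edgeR adjusted p = 2.30e-07). RPL21 has 137 pseudogenes in RefSeq, the most of any member. How reads shared with near-identical copies were counted is not given in the sources used here, so its row is uncertain.

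The stalk of the large subunit, where translation factors dock, is built from RPLP0 and the acidic proteins RPLP1 and RPLP2. RPLP1 was at 617, 668 and 586 CPM in control and 1010, 960 and 1052 CPM in OBF1 shRNA libraries, 1.61-fold higher (log2 fold change 0.69, SE 0.04, edgeR adjusted p = 1.81e-11). RPLP2 was 1.40-fold higher, at 645 ± 27.5 against 904 ± 38.4 CPM, and RPLP0, the base of the stalk, 1.31-fold, at 1923 ± 42.1 against 2526 ± 36.0 CPM (SD, n = 3). All 3 stalk genes therefore rose, with RPLP1 and RPLP2 at the upper end of the members' range and RPLP0 near its middle.

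RPL5 and RPL11 form a particle with 5S ribosomal RNA that is also known for restraining MDM2, the ligase of p53. They lay toward the lower end of the members that rose. RPL5 was at 1144, 1196 and 1147 CPM in control and 1277, 1292 and 1314 CPM in OBF1 shRNA libraries (1.11-fold, log2 fold change 0.16, SE 0.03, edgeR adjusted p = 2.10e-05), the smallest rise among called members. RPL11 rose 1.21-fold, from 1406 ± 21.8 to 1706 ± 10.3 CPM (SD, n = 3).

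Genes for proteins that line the exit tunnel or ring its opening, through which the new chain leaves, were higher in 9 of 9 cases. Their median log2 fold change was 0.39, near the 0.38 of all tested members, 94.0% of which were called higher. RPL23A, a docking point for the signal recognition particle, rose most, from 362, 373 and 373 CPM to 537, 527 and 543 CPM (1.45-fold, log2 fold change 0.54, SE 0.02, edgeR adjusted p = 7.36e-13). RPL19 was at 1361 ± 28.6 against 1830 ± 11.7 CPM (SD, n = 3). RPL17 rose least of this group, at 1.12-fold, from 230 ± 4.35 to 258 ± 6.56 CPM (SD, n = 3).

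On the small subunit, RPS12, of the beak, rose 1.47-fold from 849, 851 and 814 CPM to 1261, 1172 and 1255 CPM (log2 fold change 0.55, SE 0.03, edgeR adjusted p = 6.90e-12). RPS10 and RPS27A, the other listed beak proteins, rose with it. RPS2, at the entry of the messenger RNA channel, rose 1.44-fold, from 276, 303 and 286 CPM to 420, 408 and 416 CPM. RPS3, its neighbour there, rose 1.25-fold. RPS23, a protein of the decoding centre, rose 1.43-fold, from 772 ± 17.9 to 1102 ± 21.0 CPM (SD, n = 3). These 3 largest rises of the small subunit, in RPS12, RPS2 and RPS23, were each separated fully between the groups.

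RPS26, a platform protein at the exit of the messenger RNA channel, was the only non-paralog member called lower. It was at 9.54, 10.6 and 10.6 CPM in control and 8.83, 7.84 and 8.62 CPM in OBF1 shRNA libraries (log2 fold change -0.28, SE 0.08, edgeR adjusted p = 0.00327). The groups did not overlap, but its level was far below those of the other non-paralog small subunit genes, and RefSeq lists 59 pseudogenes of it. Like that of RPL21, its row is therefore uncertain. The other 4 platform genes, RPS3A, RPS14, RPS27 and RPS28, rose. TSR2, the chaperone that delivers RPS26 to the subunit, was also lower, at 68.5 ± 1.26 against 57.2 ± 0.361 CPM (SD, n = 3, edgeR adjusted p = 2.13e-06).

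Genes mutated in Diamond-Blackfan anaemia, an inherited failure of red cell production from too little of 1 ribosomal protein, were higher in 13 of 14 tested cases, again with RPS26 as the exception. That share is near the 94.0% of all tested members called higher. RPL27 rose 1.36-fold, from 794, 814 and 788 CPM to 1098, 1074 and 1089 CPM, with no overlap. Scaled by library sizes alone, 12 of the 14 were called higher.

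Of 9 listed, RPL3L of heart and skeletal muscle and RPL10L of testis had 4 and 22 counts in all 6 libraries together and were not tested. Of the other 7, 3 were higher, 2 lower and 2 did not pass, shares near the 37.5% higher and 37.9% lower of all tested genes. Ratios of a paralog to its partner are given per kilobase within each library and need no scaling factor. With 3 libraries against 3 their exact two-sided permutation p cannot go below 0.1, or 0.129 adjusted over 9 pairs, so none of these differences passes the threshold.

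RPL22L1, a near copy of the large subunit protein RPL22 that can take its place and also acts in splicing, rose more than RPL22. It was at 315, 328 and 315 CPM in control and 500.1, 508 and 503 CPM in OBF1 shRNA libraries (1.58-fold, log2 fold change 0.66, SE 0.02, edgeR adjusted p = 4.87e-14), while RPL22 rose 1.21-fold from 350.1 ± 6.43 to 423 ± 7.65 CPM (SD, n = 3). Per kilobase RPL22L1 stood at 94.1%, 94.4% and 92.9% of RPL22 in control libraries and at 124%, 121% and 122% in OBF1 shRNA libraries. The order of the pair was thus reversed in every OBF1 shRNA library (exact permutation p = 0.1).

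RPL39L, the testis-enriched copy of the tunnel protein RPL39, went the other way from its partner. It was at 9.48, 10.3 and 9.87 CPM in control and 6.26, 7.22 and 6.89 CPM in OBF1 shRNA libraries (log2 fold change -0.54, SE 0.08, edgeR adjusted p = 8.51e-06), while RPL39 rose 1.39-fold from 151 ± 5.83 to 210.2 ± 3.95 CPM (SD, n = 3). RPL39L thus stood at 3.90% ± 0.181 of RPL39 per kilobase in control and 1.93% ± 0.134 in OBF1 shRNA libraries (SD, n = 3, exact permutation p = 0.1).

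RPL7L1, a nucleolar factor of large subunit assembly related to RPL7, was at 98.3, 96.6 and 95.8 CPM in control and 87.4, 85.4 and 86.0 CPM in OBF1 shRNA libraries (log2 fold change -0.17, SE 0.03, edgeR adjusted p = 8.09e-05). RPL7 itself was 1.15-fold higher. RPS27L, a p53-induced copy of RPS27, did not pass the test (30.8, 30.1 and 27.8 CPM against 28.6, 28.9 and 29.5 CPM, edgeR adjusted p = 0.616), and with library sizes alone it was called lower (adjusted p = 0.0177). RPS27 rose 1.36-fold. RPS27L was at 2.76% ± 0.182 of RPS27 in control and 1.99% ± 0.0872 in OBF1 shRNA libraries (SD, n = 3, exact permutation p = 0.1). With transcript lengths from GENCODE these levels were 0.694% and 0.499%, so the percent depends on the length used and the change between the groups does not. RPL26L1 rose 1.19-fold beside 1.31-fold for RPL26 and was at 2.13% ± 0.0724 of it in control and 1.94% ± 0.0656 in OBF1 shRNA libraries (SD, n = 3). Across the 9 pairs compared, RPL36AL and RPL36A included, 7 did not overlap between the groups, a share near the 76.6% of all tested genes that did not overlap.

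The X-linked RPS4X and its Y-linked copy RPS4Y1, whose proteins are interchangeable, rose together. RPS4X was at 1177, 1253 and 1207 CPM in control and 1588, 1557 and 1620 CPM in OBF1 shRNA libraries, and RPS4Y1 at 356, 379.5 and 361 CPM and 479, 477 and 478 CPM. RPS4Y1 held 39.8% ± 0.291 of the level of RPS4X per kilobase in control and 39.8% ± 0.750 in OBF1 shRNA libraries (SD, n = 3), and the groups overlapped (exact permutation p = 0.8). RPS4Y2, known from testis, had values of 3.87 to 4.09 CPM and 4.40 to 5.07 CPM and did not pass (edgeR adjusted p = 0.0576); it passed without OBF1 shRNA replicate 2 (adjusted p = 0.0432).

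**Figure D4:**
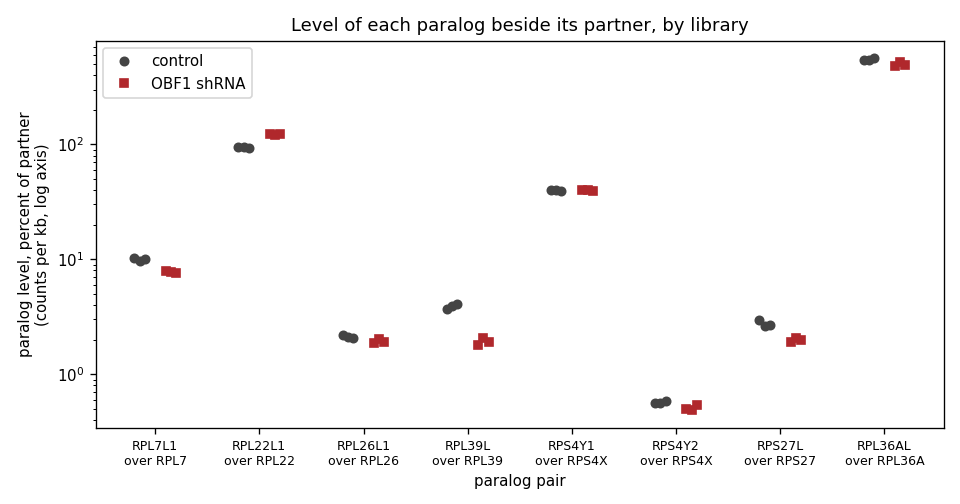
Level of each paralog as a percent of its partner (counts per kilobase, log axis), 1 point per library, control as dark circles and OBF1 shRNA as red squares. RPL22L1 passes 100% of RPL22 in the OBF1 shRNA libraries, RPL39L goes from 3.90% to 1.93% of RPL39, and the values of RPS4Y1 overlap between the groups.

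Levels between members are compared as CPM divided by the deposited gene length in kilobases (RPKM). Among tested members, control levels had a median of 456 RPKM. Among the 5 highest were RPL11 at 2218 ± 34.4, RPL19 at 1859 ± 39.0 and RPL26 at 1752 ± 51.5 RPKM (SD, n = 3). RPL21 was lowest, at 2.91 RPKM, followed by RPS4Y2 at 4.52, RPL39L at 14.1, RPS26 at 15.0 and RPS27L at 18.7 RPKM, so 3 of the 5 lowest were paralogs. The deposited lengths exceed those of the main transcript for some members, for instance 4726 bases for RPL13. With transcript lengths from GENCODE, chosen after seeing the data, RPS18 was highest at 3377 RPKM, where the deposited length gave 567 RPKM; the order is therefore loose, and the 5 lowest were RPL21, RPS27L, RPS4Y2, RPS26 and RPL39L by either length.

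Across the 83 tested members, which share libraries and depth, the log2 fold change had Pearson's r = 0.21 and Spearman's rho = 0.20 with log2 control RPKM, and r = -0.02 and rho = -0.15 with log2 deposited length.

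**Figure D5:**
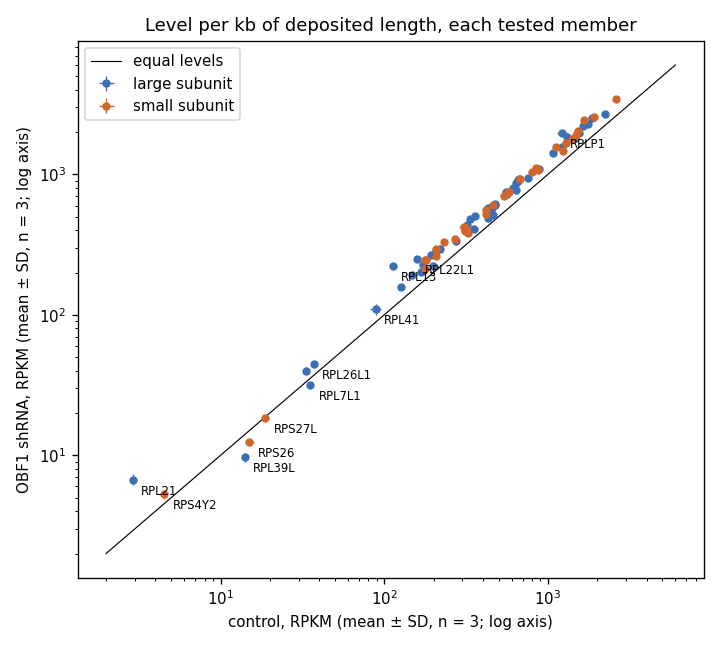
Level of each tested member in control (x) and OBF1 shRNA (y) libraries, RPKM by deposited length, mean ± SD over 3 libraries, log axes; blue large and orange small subunit. Most points run parallel to and above the line of equal levels; RPL21 and RPL13 lie furthest above it, and RPL7L1, RPS26, RPL39L and RPS27L lie on its lower side.

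Start windows from 250 bases before to 50 bases after the annotated start were matched in RefSeq (GRCh38.p14) for 69 members. A TOP start was found in 54 of them (78.3%), beside 13.0% of all 35116 windows and 18.9% of tested genes outside the list. All 54 were higher, with a median log2 fold change of 0.39 and a range from 0.19 to 1.21. Of the 14 tested members with a window but no TOP start, 10 were higher, 2 lower and 2 did not pass, with a median of 0.30. These 14 include the paralogs RPL7L1, RPL26L1, RPS27L and RPS4Y2. The others are not paralogs, and all of them but RPS26 were called higher. Their log2 fold changes included 0.45 for RPL27, 0.39 for RPS4X and 0.17 for RPL17. Of 1782 tested genes outside the list with a TOP start, 666 were higher and 701 lower, with a median of -0.01. This start is a match of letters found in 18.9% of those genes, and it does not define the TOP class of messenger RNAs.

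Other motifs were searched on both strands of the same windows. The octamer ATGCAAAT, the element that Oct factors and OBF1 bind, was in 1 of 69 members, RPS23 (1.45%), beside 1.77% of all windows and 1.94% of tested genes outside the list. The ETS motif CCGGAAGT was in 11 members (15.9%), beside 4.14% of all windows and 10.8% of tested genes outside the list. The E-box CACGTG was in 5 (7.25%), beside 7.26% of windows and 13.0% of those genes, and TATAAA in 7 (10.1%), beside 11.5% and 8.19%. A palindrome known as the motif of ZBTB33 (Kaiso) was in 4 members (5.80%), RPL17, RPL26, RPS6 and RPS19, beside 0.424% of windows and 1.11% of those genes. Members and other genes are counted once even where they have several windows. These are matches of letters only and do not show binding.

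Ribosomal proteins that the naming rule leaves out moved in the same direction. FAU, which carries RPS30 fused to a ubiquitin-like protein, rose 1.20-fold, from 388 ± 19.6 to 464 ± 18.1 CPM (SD, n = 3). RACK1, a scaffold on the head of the small subunit, rose 1.09-fold and RPL36AL, a copy of RPL36A, 1.08-fold. RACK1 and RPL36AL lost their calls with library sizes alone (edgeR adjusted p = 0.466 and 0.817).

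Translation factors and other genes of the TOP class were higher in 13 of 16 cases and lower in 2, with a median log2 fold change of 0.20. Among all tested genes 37.5% were called higher and 37.9% lower. EEF1B2, the exchange factor for elongation factor 1, rose 1.44-fold from 405 ± 8.28 to 584 ± 11.7 CPM, and PABPC1, the poly(A)-binding protein, 1.33-fold (SD, n = 3). EEF2, which moves the ribosome along, was lower, at 3542 ± 179 against 2930 ± 77.4 CPM (SD, n = 3, edgeR adjusted p = 4.29e-07), as was the helicase gene EIF4A2. Scaling by library sizes alone left 8 higher and 3 lower. Of 10 noncoding snoRNA host transcripts of the TOP class, 5 were higher and 4 lower, near the shares of all tested genes, with SNHG29 and SNHG12 higher and SNHG1 and SNHG32 lower (4 higher and 5 lower with library sizes alone).

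Chaperones that accompany single ribosomal proteins were higher in 8 of 12 cases and lower in 1, TSR2, beside 37.5% and 37.9% of all tested genes. RPF2 and RRS1, among the 8, overlapped between the groups. Both lost their calls with library sizes alone and without OBF1 shRNA replicate 3. HEATR3, which imports RPL5 and RPL11, rose 1.47-fold from 25.5 ± 0.563 to 37.6 ± 1.09 CPM, and BCCIP, the chaperone of RPL23, 1.33-fold (SD, n = 3). On library sizes alone 5 were higher and 2 lower. Among S6 kinases and regulators of TOP messenger RNAs, 8 of 16 were higher and 5 lower, not far from the shares of all tested genes. LARP1, which binds the TOP motif, was at 752, 759 and 770 CPM in control and 541, 554 and 540 CPM in OBF1 shRNA libraries (log2 fold change -0.48, SE 0.02, edgeR adjusted p = 2.40e-12). LARP4 was also lower. RPS6KA1 rose 1.72-fold and RPS6KA4 2.08-fold; both are kinases of the RSK and MSK type. The same list gave 7 higher and 8 lower with library sizes alone.

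Mitochondrial ribosomal protein genes, whose products form the separate ribosome of the mitochondrion, were higher in 49 of 77 cases and lower in 13. The shares of all tested genes were 37.5% and 37.9%. The median log2 fold change of the mitochondrial set was 0.14. MRPL36 rose 1.50-fold and MRPL19 1.39-fold, while MRPL18 and MRPS6 fell by 0.42 and 0.43 on the log2 scale. Without trimmed-mean factors 31 were higher and 23 lower. The difference between the cytosolic and mitochondrial sets was not tested.

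Some rows may share reads, which was not tested. RPL17 and the read-through gene RPL17-C18orf32 held nearly the same counts, 7127 and 7032 in control replicate 1. RPS10 and RPS10-NUDT3 held 8400 and 9265, and RPL36A and RPL36A-HNRNPH2 3008 and 5033 in that library. Values of these 3 members are uncertain to that extent. The row of SNORA33, a small nucleolar RNA inside RPS12, held 15425 counts beside 26509 for RPS12 in the same library. Whether those 2 rows share reads was not tested. RefSeq lists 1973 pseudogenes of members by name, of which 28 had a row; adding those rows to their members changed no call.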

How the data were processed

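Poly(A) RNA was sequenced from 6 Raji libraries with a stranded kit, per the labels' protocols. The authors deposited a table of whole-number counts for each gene, not normalised, and a length for each gene. The submitters' processing notes list the builds hg19 and mm9; the aligner, counting tool, annotation and strand setting were not found in the labels or headers (not given in the sources used here). All 6 count columns were used. Of 23459 rows, 23308 matched a symbol in a RefSeq table of GRCh38.p14. The test was that of edgeR 4.0.16, run in R 4.3.3. The filter filterByExpr (min.count 10, min.total.count 15) kept 12010 genes, libraries were scaled by TMM, and the quasi-likelihood F test compared all 6 libraries with no covariate, with Benjamini-Hochberg adjustment over all tested genes and a threshold of 0.05. The SE is the log2 fold change divided by the square root of F. Alternatives were DESeq2 1.42.0, limma-voom (limma 3.58.1), other scalings and filters, the replicate number as a block, added pseudogene rows, and leaving out each library.

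The members and gene lists were chosen with earlier results of these data known. Genes named were all paralogs with their partners, the 8 largest called changes in each direction, members not called, the 5 highest and 5 lowest by control RPKM, ribosomal proteins outside the rule, and up to 2 called genes per direction with the smallest p from each other list; any other was picked after its values were seen. No start window was used for 16 members, among them RPL3L, RPL5, RPL7, RPL8, RPL23, RPL23A, RPL30, RPL37, RPL39L, RPS2, RPS15A and RPS20. Some genes that the rule names are not reported here by name. Between libraries of 1 group, chi-square per degree of freedom was 1.88 to 3.26, so none looked like a repeat deposit.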

Additional observations from a re-analysis of the deposited data

How the results depend on the processing

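Across 16 alternatives, 1324 of 1328 results for single members (83 members) kept their direction and their side of the threshold, and 0 reversed. The counts of 78 higher and 3 lower members were unchanged with DESeq2, limma-voom, RLE and upper-quartile factors, scaling from genes outside the list, both other filters and added pseudogene rows. With library sizes alone, 2 small subunit members were lower in place of 1 and the median log2 fold change of tested members was 0.28. Leaving out 1 library gave 78 to 79 higher members, 3 lower, and a median of 0.37 to 0.41. All genes called numbered 9058, and 8344 with DESeq2. Replicate numbers did not pair the libraries: deviations of same-numbered libraries correlated at 0.01, -0.12 and -0.06. With the replicate block, 78 members were higher and 3 lower, and 8759 genes were called. Transcript lengths from GENCODE, chosen after seeing the data, gave a difference in the large over small subunit ratio of -0.00289, beside -0.00421. Leaving out 1 library moved that difference between -0.0116 and 0.0033. Depth limits RPL3L and RPL10L, at 4 and 22 counts in all, and goes with the largest SEs, those of RPL21 (0.13), RPS4Y2 (0.10), RPL39L (0.08) and RPS26 (0.08).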

Other observations

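Many small nucleolar RNAs, guides for the modification of ribosomal RNA, lie in introns of ribosomal protein genes. Leaving out SNORA33, 48 rows of snoRNAs lay inside 25 members by RefSeq gene positions; they were examined after the data were seen. Their summed counts, not scaled between libraries, were 996, 917 and 878 in control and 688, 796 and 699 in OBF1 shRNA libraries, below every control library. The libraries were made from poly(A) RNA and most of these rows held few counts, so the values may not reflect the mature snoRNAs. Without SNORD58B the unscaled sums of 47 rows were 824, 723 and 703 against 636, 689 and 629, a smaller difference. Divided by trimmed-mean scaled library sizes, these sums of 47 rows overlapped between the groups. Of 26 such rows tested, 2 were lower, 1 was higher and 23 did not pass the edgeR test. SNORD58B, inside RPL17, held 172, 194 and 175 counts in control and 52, 107 and 70 in OBF1 shRNA libraries (log2 fold change -1.15, SE 0.16, edgeR adjusted p = 2.75e-06), whereas its host rose 1.12-fold. SNORA52, inside RPLP2, was lower (edgeR adjusted p = 0.0376). The row of SNORA33, inside RPS12, has a deposited length of 2045 bases, far above those of the other snoRNA rows, and 15425 counts in control replicate 1. Its log2 fold change was 0.53 (edgeR adjusted p = 2.40e-11), near the 0.55 of RPS12. Whether the row holds reads of RPS12 was not tested, so it is not read as a level of the snoRNA.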
